A study of Oryza sativa with 18 samples.

Results

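The comparison described here set rice (Oryza sativa) embryos of the csa mutant against embryos of the wild type line 9522 at 6 h of imbibition, the uptake of water that starts germination. Its members are all genes in the authors' deposited table for that time, which lists 2388 genes out of 3149 listed at any of the 3 times sampled. Per the labels, the csa group was 3 libraries of mutant embryos and the wild type group was 3 libraries of 9522 embryos. Seeds of both genotypes were imbibed on half-strength MS medium at 28 °C with 16 h of light and 8 h of dark a day, and 5 seeds went into each extraction of total RNA for Illumina sequencing. The mutant allele is not described in the labels used here. The labels do not say whether the libraries of a group came from separate plants or seed lots, so the errors and p-values below measure only the spread between these libraries.

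CSA (CARBON STARVED ANTHER) encodes a MYB factor of the R2R3 class, best known for directing sugar to the developing anther. A dry embryo carries transcripts laid down during seed maturation, among them those for late embryogenesis abundant (LEA) proteins, dehydrins, chaperones and oil body proteins, and these fall as germination proceeds. Abscisic acid holds the maturation state and gibberellin opposes it, while growth of the radicle needs loosening of cell walls by expansins and other wall enzymes and a supply of sugar, amino acids and minerals.

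More genes were higher than lower in csa embryos. Of the 2388 listed genes, which are 10.3% of the 23117 genes the authors tested, 1395 were higher in csa (6.03% of genes tested) and 993 were lower (4.30%). A gene was listed when its deposited false discovery rate (FDR) was at most 0.05 and its log2 fold change was at least 1 in absolute value. The listed genes nearest that threshold had log2 fold changes of 1.0003 and -1.0004, and 358 genes lay within 0.1 of it. Genes just outside the threshold are not in the table and were not analysed here. The median log2 fold change was 1.44 among the higher genes and -1.38 among the lower ones. Changes of 4-fold or more were found in 301 of the higher genes (21.6%) and in 175 of the lower genes (17.6%). The 3 csa counts and the 3 wild type counts did not overlap in 97.3% of listed genes and overlapped in 65. Since the genes were listed for this very difference, these counts and medians are a description of the list.

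**Figure D1:**
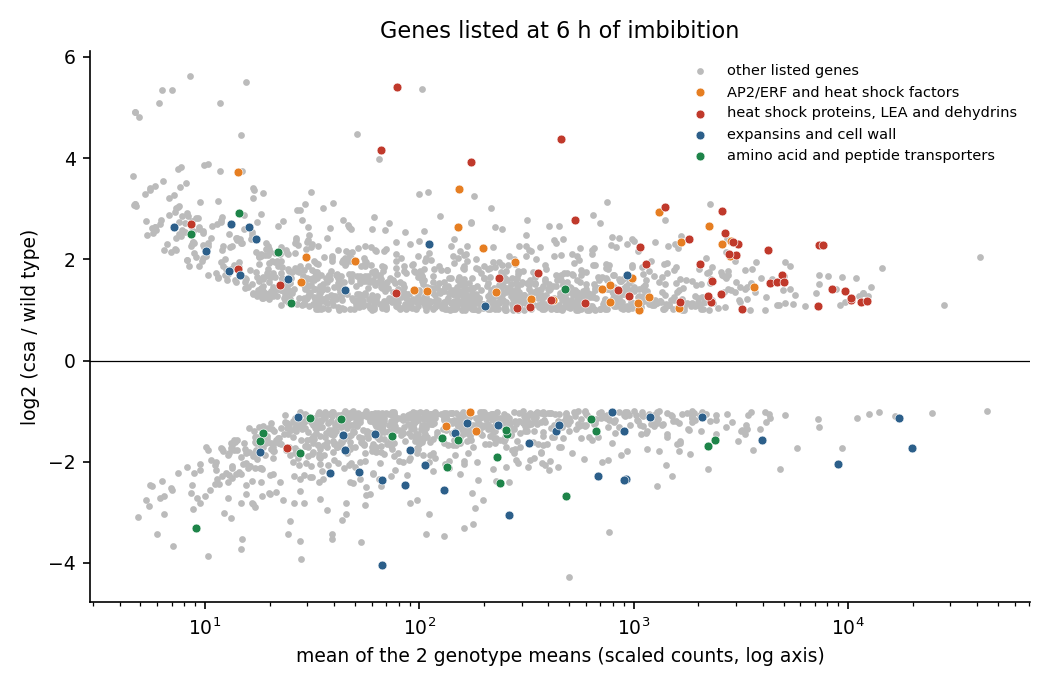
Each point is 1 of 2385 genes listed at 6 h, with the mean of both genotypes in scaled counts on a log axis and the log2 ratio of csa to wild type on the vertical axis. The 3 genes with 0 counts in all wild type libraries are left out. AP2/ERF and heat shock factors (orange) and heat shock, LEA and dehydrin genes (red) lie mostly above 0, and expansins and cell wall genes (blue) and amino acid and peptide transporters (green) lie mostly below it.

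Summed over the listed genes, the 6 libraries held between 1229479 and 1746037 counts. Their full depth is unknown, because uncalled genes are not in the table. Marker genes could not check the labelled tissue, because only genes called different between the genotypes are listed. All 12 listed embryo markers (oleosins, LEA proteins and globulin 1) were higher in csa. They summed to 95500 to 106000 scaled counts in csa libraries and 34900 to 49800 in wild type libraries. Endosperm markers (glutelins and globulin 1) were listed 4 times, all higher in csa, with sums of 46900 to 55600 scaled counts in csa and 16500 to 27400 in wild type. The globulin 1 genes were counted among the embryo markers too, so these sums do not measure endosperm alone. The 2 glutelin genes of the 4 summed to only 319 to 518 scaled counts in csa and 166 to 207 in wild type. Photosystem and chlorophyll-binding genes were split, with 3 higher and 3 lower, and their sums overlapped at 283 to 395 scaled counts in csa and 316 to 381 in wild type. The 2 listed alpha-amylase genes, taken as markers of aleurone and scutellum, were higher, with sums of 185 to 361 scaled counts in csa and 34.3 to 64.6 in wild type. Pollen and anther markers were 1 higher and 2 lower, with sums of 2790 to 6980 scaled counts in csa and 1500 to 2370 in wild type, and root markers were listed 0 times. Whether tissue other than embryo took part in any result below was not tested. In such bulk samples, fewer cells of a type and less RNA per cell cannot be told apart.

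CSA itself (LOC_Os01g16810) was lower in csa embryos but still counted there. It had 92, 81 and 201 raw counts in csa against 310, 305 and 380 in wild type, which did not overlap, and its log2 fold change was -1.38 ± 0.40 (SE, n = 3 each). From here on, 3 counts per genotype are given in the order of the replicate numbers, and errors of log2 fold changes are standard errors with n = 3 each. Fold changes are ratios of mean counts after scaling each library by factors of 0.952 to 1.10. Lists of genes were drawn from search terms on the annotation text, and their counts are read beside the 58.4% of all listed genes that were higher in csa. Medians of lists pool both directions and are read beside the median log2 fold change of 1.11 over all listed genes. In refits of the listed genes with edgeR's quasi-likelihood test that left out 1 library at a time, 0 genes changed sign and 1213 of the 2388 kept their call every time. Whether a call was kept was judged by the refit's own fold change and p. Values given without 1 library are ratios of mean scaled counts, so they alone do not decide a call. Scaling the listed genes to one another instead (TMM) lowered log2 values by a median of 0.58. It turned the split of kept calls to 435 higher and 993 lower, again with 0 reversed signs. TMM takes most genes as unchanged, while every listed gene was called as changed, so this shift cannot decide the split.

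**Figure D2:**
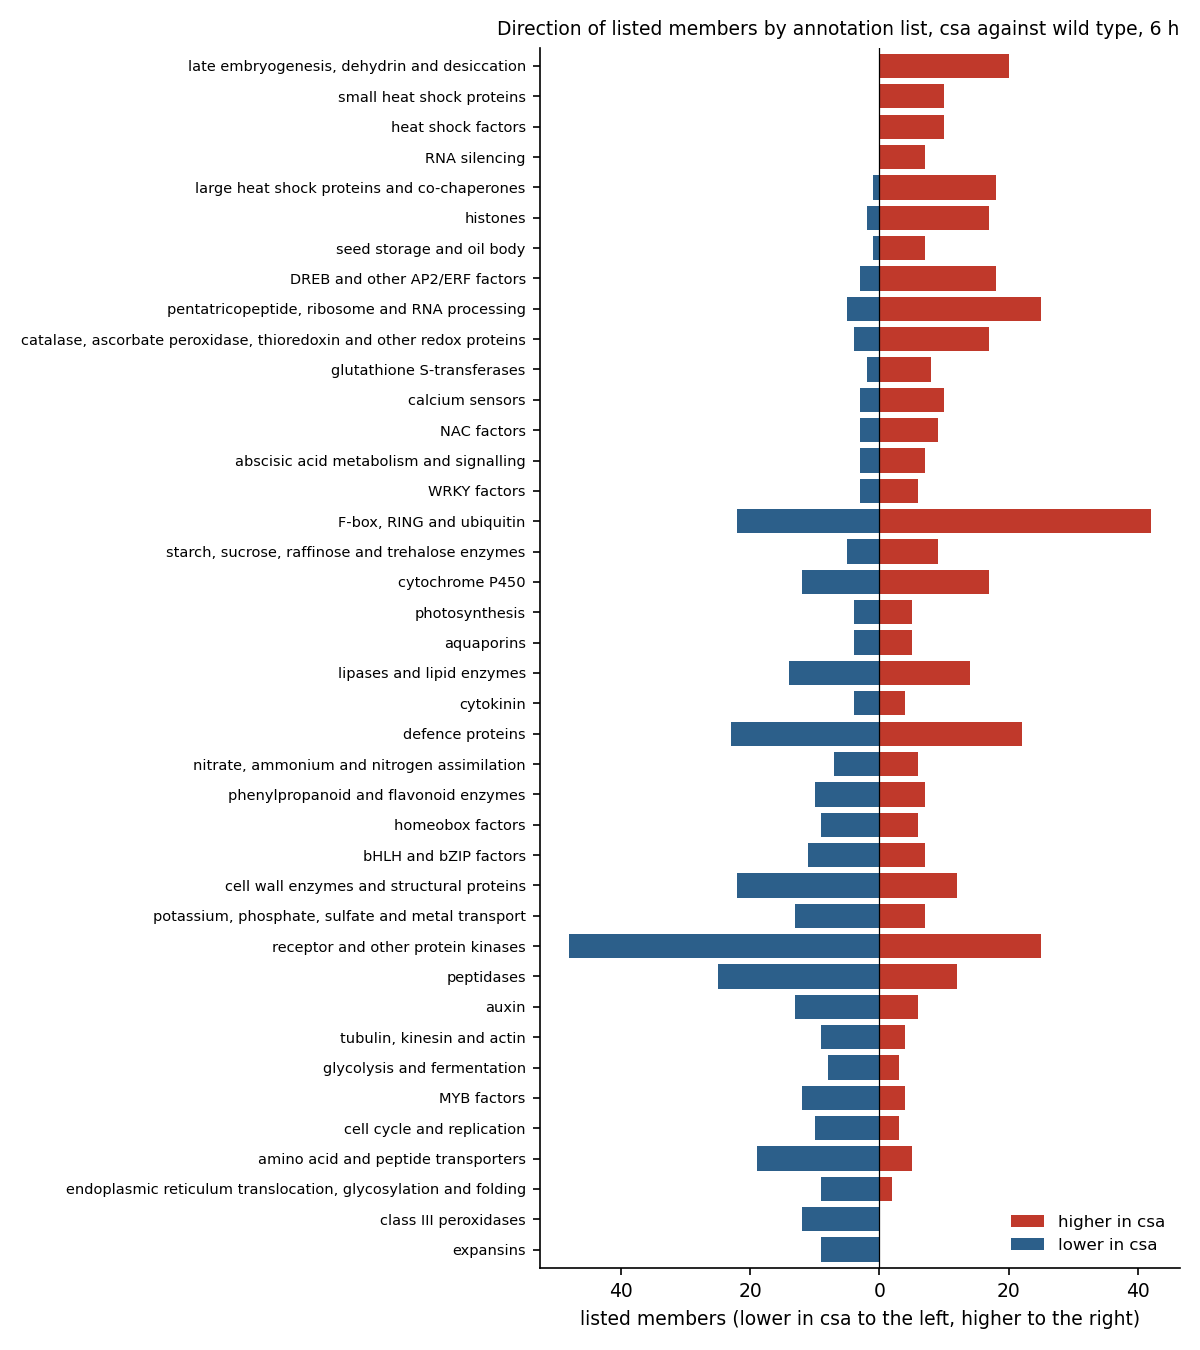
Bars give the number of listed members of each of 40 annotation lists at 6 h, those higher in csa to the right (red) and those lower in csa to the left (blue), sorted by the share that was higher. RNA silencing, LEA, heat shock factor and small heat shock lists hold higher genes alone, while expansins and class III peroxidases hold lower genes alone.

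Transcription factors of the cold, drought and heat responses were mostly higher in csa. The AP2/ERF family, which includes the DREB/CBF factors that bind dehydration-responsive elements, had 18 members higher and 3 lower in csa, with a median log2 fold change of 1.96. All 6 listed genes that RefSeq names DREB1 were higher (median 2.32), and so were all 4 that it names DREB2 (median 1.34). DREB1C (LOC_Os06g03670), also called CBF1, had 239, 279 and 310 counts in csa against 42, 17 and 22 in wild type. Its groups were far apart, with a log2 fold change of 3.39 ± 0.43. DREB1A (LOC_Os09g35030) had 2151, 3210 and 1408 counts in csa against 547, 245 and 110 in wild type, a difference of 2.94 ± 0.73 that stood at 3.71 without wild type replicate 1. Its neighbours DREB1B (LOC_Os09g35010) and DREB1H (LOC_Os09g35020) differed by 2.33 ± 0.81 and 1.96 ± 0.61, and DREB1B stood at 3.25 without the same library. RefSeq gives the name DREB1I to 2 adjacent loci. LOC_Os08g43200 had 3980, 4013 and 4642 counts in csa against 1306, 878 and 409 in wild type (2.30 ± 0.46). LOC_Os08g43210 differed by 1.15 ± 0.44 with overlapping genotypes, and its call was lost without csa replicate 1 (0.98), csa replicate 2 (0.96), wild type replicate 1 (1.15) or wild type replicate 3 (0.93). The treatment of reads shared between such copies is not stated in the labels.

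Among the DREB2 genes, which act in drought and heat responses, DREB2C (LOC_Os08g45110) showed the largest difference, 2.63 ± 0.68, or 3.55 without wild type replicate 1, and was also higher at 3 h (1.90). DREB2D (LOC_Os05g39590) and DREB2B (LOC_Os05g27930) differed by 1.55 ± 0.30 and 1.13 ± 0.16. DREB2A (LOC_Os01g07120) lay at the threshold, at 1.00 ± 0.15, and was kept only without csa replicate 2 or wild type replicate 1, standing at 0.89 to 0.99 without any of the others. A further AP2/ERF gene, LOC_Os07g12510, had 5935, 4996 and 4810 counts in csa against 2584, 1905 and 1433 in wild type (1.44 ± 0.30). The 3 lower members included LOC_Os04g46400, annotated as similar to a dehydration-responsive element-binding protein, at -1.39 ± 0.37. LOC_Os06g11860, annotated as similar to a DRE-binding protein 2 but outside the search terms of the list and its counts, had 259, 159 and 140 counts in csa against 377, 378 and 438 in wild type. It was lower at 6 h (-1.04 ± 0.31) and higher at 3 h (1.58), and its 6 h call was lost without csa replicate 2 (-0.95), csa replicate 3 (-0.84), wild type replicate 1 (-1.06) or wild type replicate 2 (-1.03). Without 1 library, 15 to 17 of the 18 higher calls were kept, and 1 of the 3 lower calls was kept without csa replicate 2 or wild type replicate 3.

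Heat shock factors, which switch on chaperone genes, were listed 10 times and were higher in csa 10 times (median log2 1.41). HSFA3 (LOC_Os02g32590), a factor that in Arabidopsis acts downstream of DREB2A, had 4501, 4398 and 5246 counts in csa against 1469, 520 and 842 in wild type. The groups did not overlap, and the log2 fold change was 2.36 ± 0.44. HSFA2E (LOC_Os03g58160) differed by 1.49 ± 0.22, and HSFA9 (LOC_Os03g12370), whose Arabidopsis and sunflower relatives act in seed maturation, by 1.26 ± 0.14. HSFB2A (LOC_Os04g48030) and HSFA4B (LOC_Os01g54550) differed by 1.41 ± 0.45 and 1.36 ± 0.20. HSFA6A (LOC_Os06g36930) stood at 1.97 ± 0.65 with overlapping genotypes, and its call was lost without wild type replicate 1 (2.20). HSFC2A (LOC_Os02g13800) was the one factor of the list also called at 3 h, with 1.20 ± 0.30 at 6 h and 2.64 at 3 h. Leaving out 1 library kept 9 or 10 of the 10 calls.

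Chaperones followed the same direction. All 10 listed small heat shock proteins, which hold unfolding proteins in solution, were higher in csa (median log2 2.21), and 6 of them lie outside the start of chromosome 1 discussed below. HSP17.8 (LOC_Os02g48140) had 186, 153 and 23 counts in csa against 9, 8 and 4 in wild type (4.16 ± 0.70). HSP23.2 (LOC_Os04g36750), an endoplasmic reticulum form, had 6207, 5929 and 1953 counts in csa against 1517, 1089 and 235 in wild type (2.34 ± 0.73). In both genotypes the third library was the lowest of its group for these genes. Mitochondrial HSP26.2 (LOC_Os06g11610) did not share that pattern, with 1256, 1184 and 1174 counts in csa against 530, 398 and 506 in wild type (1.38 ± 0.12).

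Larger heat shock proteins and their helpers were 18 higher and 1 lower (median log2 1.50). CLPB1 (LOC_Os05g44340), the HSP101 disaggregase, had 14936, 13173 and 7435 counts in csa against 3843, 2569 and 1064 in wild type. That is a log2 fold change of 2.28 ± 0.57, with the third library again the lowest of each genotype and no overlap. A BAG-domain co-chaperone (LOC_Os11g31060) differed by 2.95 ± 0.61 and an HSP82-like gene (LOC_Os04g01740) by 3.03 ± 0.75. Plastid CLPB2 (LOC_Os03g31300) and mitochondrial CLPB3 (LOC_Os02g08490) stood at 1.28 ± 0.31 and at 1.15 ± 0.49, the second with overlap and kept without csa replicate 3 alone (0.83 to 1.37 without any other library). The lower member was a DnaJ-like gene, LOC_Os02g35000, at -1.73 ± 0.38, whose call was lost without wild type replicate 2 (-1.31). Summed scaled counts of the larger heat shock list were 94000, 88500 and 56800 in csa against 35300, 28600 and 14200 in wild type. Between 13 and 16 of the 18 higher calls, and 7 to 10 of the 10 small heat shock calls, were kept without 1 library.

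**Figure D3:**
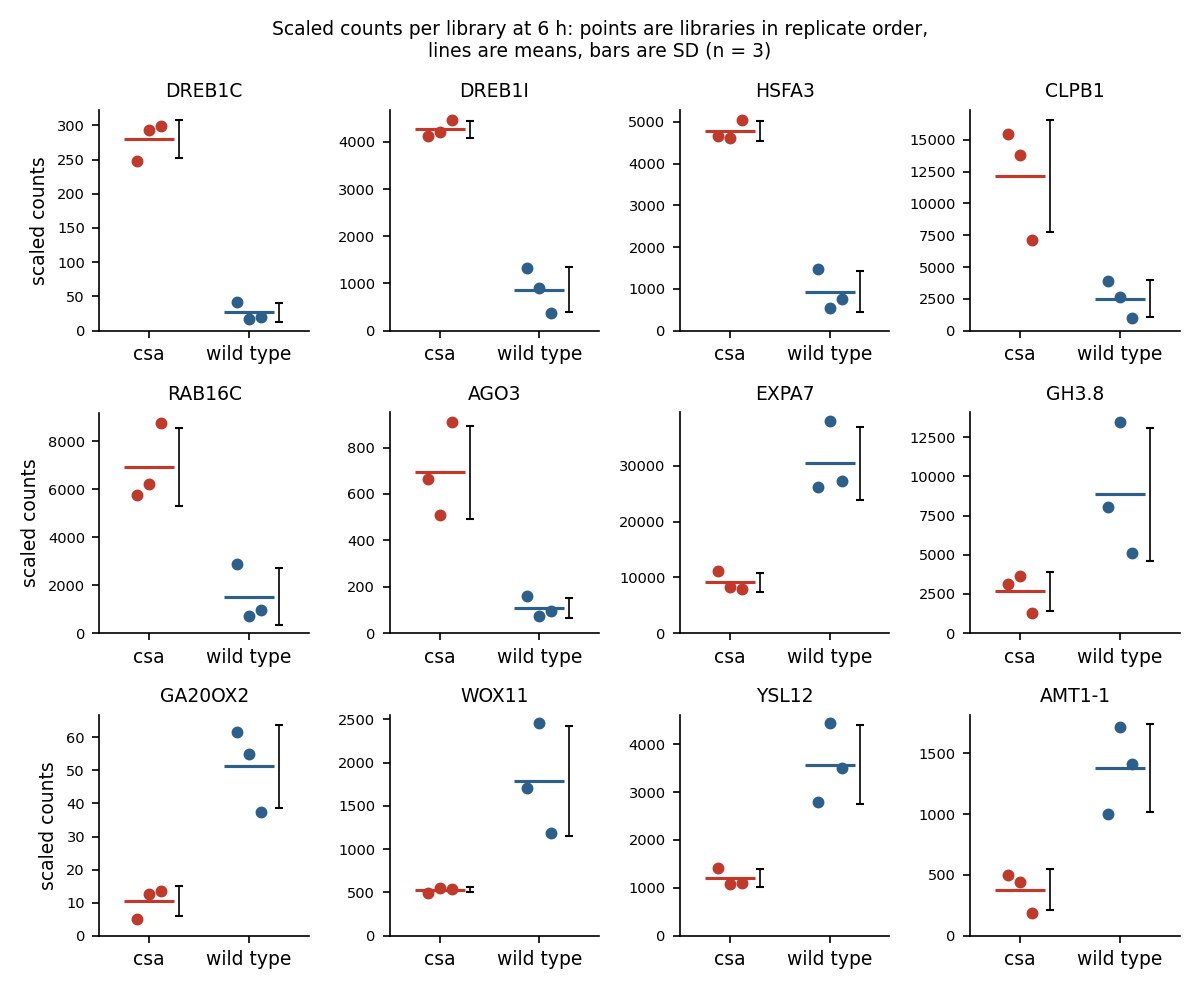
Scaled counts of 12 genes in each library at 6 h, csa (red) left of wild type (blue), with the mean as a line and the SD as a bar (n = 3). DREB1C, DREB1I, HSFA3, CLPB1, RAB16C and AGO3 are higher in all 3 csa libraries than in any wild type library, and EXPA7, GH3.8, GA20OX2, WOX11, YSL12 and AMT1-1 are lower in all 3.

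Genes of seed maturation were higher in csa. LEA proteins, dehydrins and desiccation proteins, which protect membranes and proteins in dry tissue, were listed 20 times and were higher 20 times (median log2 1.60), 12 of them also at 3 h and in the same direction. RAB16C (LOC_Os11g26760) had 5552, 5912 and 9103 counts in csa against 2846, 707 and 1062 in wild type. Its log2 fold change of 2.18 ± 0.67 stood at 3.02 without wild type replicate 1, the highest wild type library. The linked dehydrins RAB16D (LOC_Os11g26750) and RAB16B (LOC_Os11g26780) differed by 1.64 ± 0.41 and 1.55 ± 0.28, with the same open question of shared reads. A LEA group 1 gene (LOC_Os06g21910) showed little spread, with 1722, 1566 and 2045 counts in csa against 495, 423 and 547 in wild type (1.91 ± 0.10). EM (LOC_Os05g28210), the early methionine-labelled LEA protein, differed by 1.18 ± 0.19 and lost its call without csa replicate 2 (1.04) or wild type replicate 2 (1.08). Summed over the list, csa libraries held 90300, 103000 and 117000 scaled counts and wild type libraries 46200, 30000 and 33500. Without 1 library 15 to 20 of the calls were kept.

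Storage and oil body genes were 7 higher and 1 lower, but with smaller differences (median log2 1.11). Globulin 1 (LOC_Os03g46100), an embryo storage protein, had 37282, 39244 and 35909 counts in csa against 19187, 13212 and 22479 in wild type. That is a difference of 1.10 ± 0.18 at 6 h, where the same gene had 1.91 at 3 h. OLE18 (LOC_Os03g49190), an oleosin that coats oil bodies, differed by 1.11 ± 0.13, and a steroleosin (LOC_Os03g62590) by 1.10 ± 0.27. These calls lay near the threshold. The higher count stood at 2 without wild type replicate 2 and at 4 without csa replicate 2 or 3. Globulin 1 stood at 1.09 without csa replicate 1, OLE18 at 1.11 without csa replicate 2 and the steroleosin at 0.94 without csa replicate 3, each without its call, and all 3 lost it without wild type replicate 2 (0.94 to 1.04). The lower member, a cupin gene (LOC_Os05g02520), stood at -1.07 ± 0.14, and its call was lost without csa replicate 1 or 3 or wild type replicate 2 (-1.05 to -0.99). Among metallothioneins, LOC_Os10g39610 had 20103, 24051 and 22155 counts in csa against 11366, 3778 and 3991 in wild type (1.83 ± 0.59, and 2.57 without wild type replicate 1). All 4 listed metallothioneins and haemoglobins were higher. NSHB3 (LOC_Os03g13150), a non-symbiotic haemoglobin, had 17, 22 and 45 counts in csa against 2, 0 and 2 in wild type.

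Abscisic acid genes were listed on both sides, with 7 higher and 3 lower (median log2 1.44). The 7 higher genes were kept without any 1 library. They included the receptor gene PYL at LOC_Os05g12260, with 1033, 1005 and 1349 counts in csa against 572, 378 and 421 in wild type (1.34 ± 0.23). They also included protein phosphatases 2C, a family of which some members hold abscisic acid signalling in check. Of 5 listed genes that RefSeq names PP2C, 4 were higher and 1 was lower, at -1.1. The lower one lies at the start of chromosome 1. OsPP2C32 (LOC_Os03g18150) had 749, 763 and 949 counts in csa against 226, 185 and 261 in wild type (1.92 ± 0.12), and OsPP2C59 (LOC_Os06g48300) differed by 1.60 ± 0.21. The SnRK2 kinases SAPK9 (LOC_Os12g39630) and SAPK5 (LOC_Os04g59450), from a family that relays abscisic acid and water stress signals, differed by 1.52 ± 0.45 and 1.42 ± 0.29. On the lower side, ABA8OX3 (LOC_Os09g28390), an abscisic acid 8'-hydroxylase that breaks the hormone down, stood at -1.16 ± 0.53 with overlapping genotypes, and lost its call without csa replicate 1 (-1.03), csa replicate 3 (-1.01) or wild type replicate 3 (-0.65). An AREB-like gene (LOC_Os06g10880) had 448, 451 and 563 counts in csa against 1139, 1366 and 1445 in wild type (-1.39 ± 0.11). The lower count stood at 1 without any of those 3 libraries.

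Raffinose-type sugars protect dry tissue, and 2 raffinose synthase genes were listed in opposite directions. Raffinose synthase LOC_Os01g07530 was higher in csa, at 2.77 ± 0.37, and it lies at the start of chromosome 1. LOC_Os12g36870, also annotated as similar to raffinose synthase, was lower at -1.62 ± 0.53, with 4, 11 and 10 counts in csa against 17, 21 and 43 in wild type, and its call was lost without csa replicate 1 (-1.30) or wild type replicate 3 (-1.21). Galactinol synthase LOC_Os03g20120, which makes the galactosyl donor for raffinose, had 5003, 4833 and 3657 counts in csa against 1170, 856 and 601 in wild type (2.40 ± 0.35). Alpha-amylase 3A (LOC_Os09g28400), which degrades starch, had 86, 240 and 266 counts in csa against 26, 9 and 26 in wild type (3.33 ± 0.55). The list of starch, sucrose, raffinose and trehalose enzymes as a whole was 9 higher and 5 lower, and 4 of the higher calls were kept without wild type replicate 2 and 5 without csa replicate 3. On its lower side, fructokinase FRK2 (LOC_Os08g02120) had 1075, 849 and 417 counts in csa against 2241, 2859 and 2444 in wild type (-1.63 ± 0.40). Sucrose synthase SUS1 (LOC_Os03g28330), which splits sucrose, lay at the threshold, just past 2-fold lower, with a standard error of 0.41 on the log2 scale, and its call was not kept without any of the libraries (-1.20 to -0.68). Leaving out any 1 library kept 2 or 3 of the 5 lower calls.

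Redox proteins were 17 higher and 4 lower, though 9 of the 17 higher calls were kept without wild type replicate 2 and 10 without csa replicate 3. A 1-Cys peroxiredoxin (LOC_Os07g44440), a dormancy-linked antioxidant of the cereal embryo and aleurone, had 213, 148 and 292 counts in csa against 32, 14 and 48 in wild type (2.86 ± 0.47). A catalase (LOC_Os03g03910), which breaks down hydrogen peroxide, differed by 1.89 ± 0.33. Glutathione S-transferases, which conjugate toxic compounds, were 8 higher and 2 lower, with 1 of the lower calls kept without csa replicate 3, wild type replicate 2 or wild type replicate 3. GSTU6 (LOC_Os10g38740) had 1088, 1229 and 1896 counts in csa against 556, 401 and 438 in wild type (1.63 ± 0.27).

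A small list of RNA silencing genes was also one-sided, with 7 higher and none lower (median log2 2.26) and 5 to 7 kept without 1 library. Argonaute proteins carry small RNAs to their targets and Dicer enzymes cut those RNAs from double-stranded precursors. AGO3 (LOC_Os04g52550) had 639, 487 and 944 counts in csa against 157, 72 and 106 in wild type (2.66 ± 0.41). Its neighbour AGO2 (LOC_Os04g52540) had 1098, 1086 and 1394 counts in csa against 420, 203 and 375 in wild type (1.89 ± 0.29). DCL2A (LOC_Os03g38740) had 438, 326 and 684 counts in csa against 129, 58 and 124 in wild type (2.26 ± 0.41). In these 3 genes csa replicate 3 was the highest csa library and wild type replicate 2 the lowest wild type library, and the genotypes did not overlap. A DCL2B-like gene (LOC_Os09g14610) and an RNA-dependent RNA polymerase (LOC_Os01g10130) differed by 2.36 ± 0.42 and 2.10 ± 0.52. A DCL1-like gene (LOC_Os03g02970) differed by 1.08 ± 0.27 and lost its call without csa replicate 3 (0.91) or wild type replicate 2 (0.89). None of the 7 was listed at 3 h.

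Histone genes were 17 higher and 2 lower (median log2 1.66), while the list of cell cycle and replication genes was 3 higher and 10 lower (median -1.12). Histone H1 (LOC_Os04g18090), the linker histone, had 6100, 8343 and 8249 counts in csa against 3225, 2003 and 2144 in wild type (1.66 ± 0.28). Histone H4 (LOC_Os03g02780) had 630, 954 and 2054 counts in csa against 259, 100 and 206 in wild type (2.72 ± 0.59). Summed scaled counts of the list were highest in csa replicate 3, with 13300, 17200 and 20500 in csa against 7850, 6190 and 6080 in wild type. Without csa replicate 3, 11 of the 17 calls were kept. The 2 lower genes were an H2A (LOC_Os10g28230) at -1.41 ± 0.15 and H2B.3 (LOC_Os01g05610) at -3.38 ± 0.51. H2B.3 is the RefSeq name of a gene annotated as a hypothetical protein, and it lies at the start of chromosome 1. Histone genes are near-identical copies, and the assignment of shared reads is not stated.

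Among cell cycle genes, the cyclin CYCD4-1 (LOC_Os09g29100), a regulator of entry into the cycle, had 145, 115 and 113 counts in csa against 258, 315 and 281 in wild type (-1.15 ± 0.18). CYCA3-2 (LOC_Os12g39210) differed by -1.58 ± 0.36 but lost its call without csa or wild type replicate 2 (both -1.43), and a DNA polymerase delta gene (LOC_Os08g06620) had 24, 13 and 30 counts in csa against 111, 168 and 205 in wild type (-2.81 ± 0.36). Many of the other lower members lay close to the threshold. Summed scaled counts of the cell cycle list were nevertheless higher in csa, at 4720, 3870 and 4370 against 3720, 3610 and 3580 in wild type. Lower calls kept without 1 library numbered 6 without csa replicate 1, 4 without csa replicate 2, 5 without wild type replicate 1 and 4 without wild type replicate 2, where 1 of the 3 higher calls was kept.

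The 4 listed genes that the search terms for gibberellin synthesis and response took were all lower in csa (median log2 -1.54). GA20OX2 (LOC_Os01g66100), the semi-dwarf gene of gibberellin synthesis, had 5, 12 and 14 counts in csa against 61, 53 and 41 in wild type (-2.30 ± 0.42). CPS1 (LOC_Os02g17780), which acts early in that pathway, had 4, 4 and 9 counts in csa against 27, 12 and 23 in wild type (-1.83 ± 0.49). Its counts are few, and its call was lost without csa replicate 1, csa replicate 2 or wild type replicate 1 (-1.66 to -1.56). Of the 4 calls of the list, 2 were kept without any 1 library except wild type replicate 3, without which all 4 were kept. A pair of genes annotated as similar to the gibberellin receptor GID1L2 fell outside those terms, and both were higher in csa at few counts. LOC_Os08g37010 had 12, 19 and 9 counts in csa against 1, 0 and 0 in wild type. LOC_Os01g06060, at the start of chromosome 1, had 10, 7 and 8 counts in csa against 0, 2 and 1 in wild type.

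Auxin genes were 6 higher and 13 lower (median log2 -1.21). All 4 listed GH3 genes, whose enzymes join auxin or jasmonate to amino acids, were lower. GH3.8 (LOC_Os07g40290) had 3005, 3452 and 1315 counts in csa against 7949, 12969 and 5620 in wild type (-1.73 ± 0.56). GH3.4 (LOC_Os05g42150) had 96, 92 and 121 counts in csa against 246, 292 and 342 in wild type (-1.46 ± 0.13). GH3.2 (LOC_Os01g55940) was -1.21 ± 0.35 at 6 h, though at 3 h it was listed as higher in csa (1.01). Its 6 h call was lost without csa replicate 1, csa replicate 2 or wild type replicate 2 (-1.21 to -0.91). Auxin response factors, which bind auxin-regulated promoters, were listed as 3 lower genes, and LOC_Os04g56850 had 58, 42 and 53 counts in csa against 150, 209 and 297 in wild type (-2.04 ± 0.27). Higher members included a dormancy/auxin-associated gene (LOC_Os09g26620), with 188, 175 and 132 counts in csa against 58, 42 and 30 in wild type (1.97 ± 0.35). Of the 13 lower calls, 8 were kept without csa replicate 1 or wild type replicate 2 and up to 10 without the others, and of the 6 higher calls 3 were kept without wild type replicate 1 or 2.

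Cytokinin genes were evenly split, with 4 higher and 4 lower. LOG (LOC_Os01g40630), which activates cytokinin, and the response regulator OsRR6 (LOC_Os04g57720) were higher, at 1.40 ± 0.38 and 1.43 ± 0.21. LOGL10 (LOC_Os10g33900) and the cytokinin oxidase CKX3 (LOC_Os10g34230), which degrades the hormone, were lower at -2.41 ± 0.27 and -2.76 ± 0.41, the second on counts of 11 or fewer. Without csa replicate 1, 2 of the 4 lower calls were kept. Among ethylene genes, the receptor ETR4 (LOC_Os07g15540) was higher at 1.48 ± 0.21 and the synthesis gene ACS5 (LOC_Os01g09700) lower at -2.27 ± 0.55.

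Expansins and most other listed wall genes were lower in csa. All 9 listed expansins, proteins that let walls stretch without cutting them, were lower (median log2 -1.74), and 6 to 9 were kept without 1 library. EXPA7 (LOC_Os03g60720) had 10719, 7966 and 8294 counts in csa against 25903, 36617 and 30023 in wild type (-1.74 ± 0.24). EXPB4 (LOC_Os10g40730) had 261, 264 and 153 counts in csa against 1056, 1341 and 1009 in wild type (-2.28 ± 0.32). EXPA16 (LOC_Os06g41700), with 26 counts in each csa library and 98, 158 and 187 in wild type, differed by -2.45 ± 0.23. The beta-expansins EXPB3 (LOC_Os10g40720) and EXPB4 were also lower at 3 h, at -3.23 and -1.01.

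Other wall genes were 12 higher and 22 lower (median log2 -1.28). An alpha-arabinofuranosidase/xylosidase gene (LOC_Os04g54810) had 248, 290 and 331 counts in csa against 1008, 1426 and 2207 in wild type (-2.36 ± 0.29). A xyloglucan endotransglycosylase (LOC_Os11g33270), which cuts and rejoins wall xyloglucan, had 1742, 1976 and 2178 counts in csa against 4736, 6841 and 6408 in wild type (-1.57 ± 0.18). UAM1 (LOC_Os03g40270), a mutase that supplies arabinose for wall polymers, differed by -1.13 ± 0.22 and lost its call without csa replicate 2, csa replicate 3 or wild type replicate 2 (-1.20 to -0.95). A pectate lyase (LOC_Os10g31910) differed by -2.56 ± 0.27. Some families, such as polygalacturonases, pectin methylesterases and cellulose synthase-like genes, held members on both sides. The higher wall genes included CSLC7 (LOC_Os05g43530), a cellulose synthase-like gene, with 1311, 1823 and 1034 counts in csa against 544, 435 and 361 in wild type (1.68 ± 0.34), and the secondary wall cellulose synthase CESA7 (LOC_Os10g32980) at 1.60 ± 0.45, which lost its call without csa replicate 1 (1.30) or wild type replicate 2 (1.40). Endoglucanase GLU8 (LOC_Os01g21070) was lower by -4.03 but by -2.89 without wild type replicate 3. Between 16 and 22 of the lower calls were kept without 1 library.

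Class III peroxidases, secreted enzymes that stiffen or loosen walls, were listed 12 times and were lower 12 times (median log2 -1.71, with 9 to 12 kept without 1 library). LOC_Os04g56180 had 577, 805 and 1055 counts in csa against 3104, 4171 and 3814 in wild type (-2.15 ± 0.26). LOC_Os06g35480 had 1041, 584 and 531 counts in csa against 2331, 3195 and 2118 in wild type (-1.79 ± 0.42). Summed scaled counts of the family were 24400, 15700 and 14300 in csa against 34600, 48800 and 39000 in wild type. None of the 12 was listed at 3 h. Of cytoskeletal genes, 4 were higher and 9 lower, among them alpha-tubulin TubA (LOC_Os11g14220) at -1.13 ± 0.32 and beta-tubulin (LOC_Os02g07060) at -1.37 ± 0.40. TubA lost its call without csa replicate 2, csa replicate 3 or wild type replicate 2 (-1.28 to -0.89). Without csa replicate 3 or wild type replicate 2, 5 of these 9 were kept and 1 of the 4 higher ones, and 2 of the higher ones were kept without csa replicate 1 or wild type replicate 3.

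**Figure D4:**
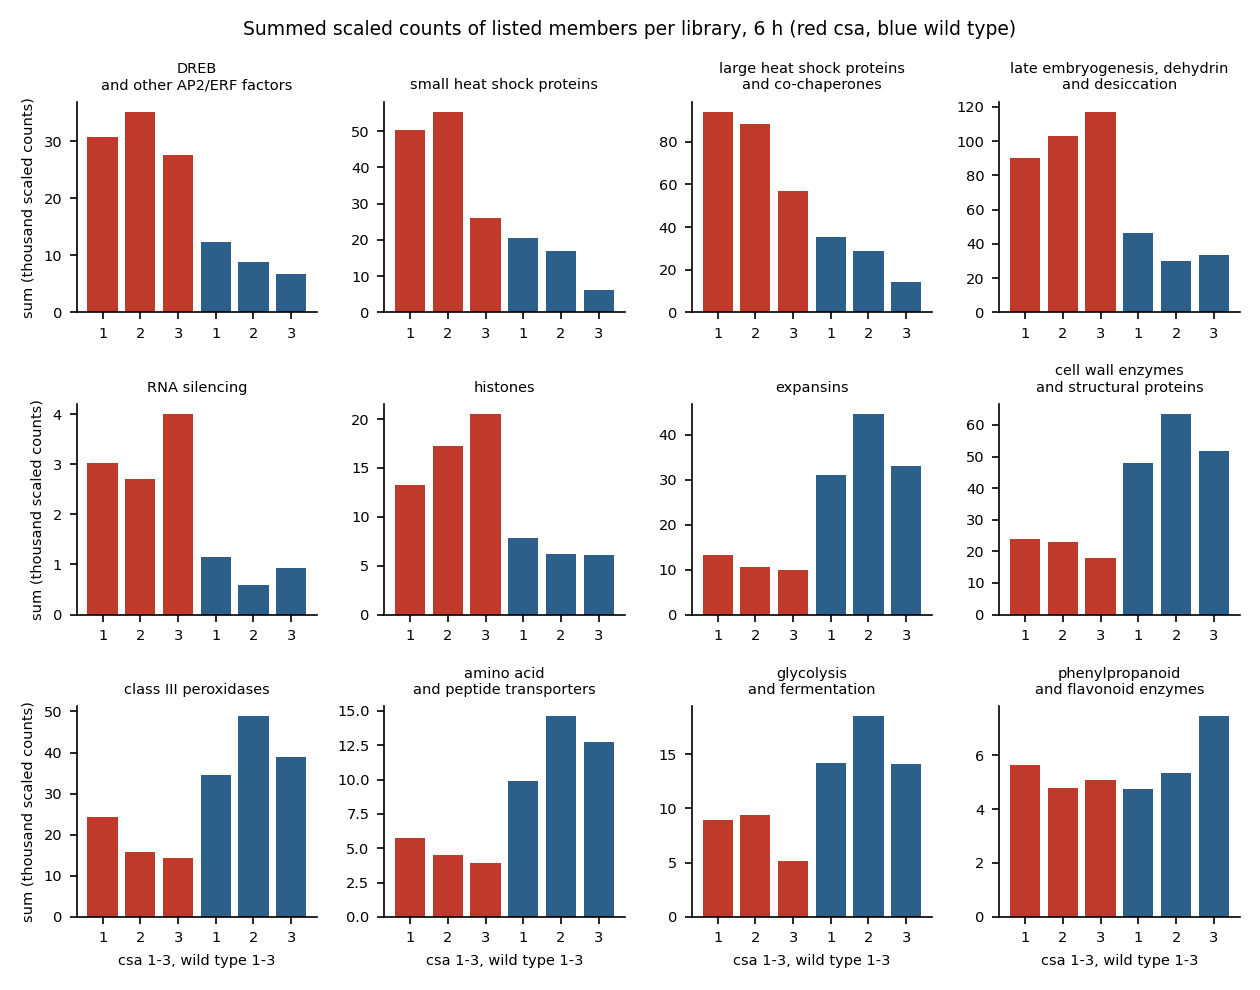
Summed scaled counts, in units of 1000, of the listed members of 12 annotation lists in each library at 6 h, csa replicates 1 to 3 in red left of wild type replicates 1 to 3 in blue. Small and larger heat shock sums are lowest in the third library of each genotype, histone sums are highest in csa replicate 3, and the phenylpropanoid sum is highest in wild type replicate 3 (7440, against 4760 and 5350 in the other wild type libraries).

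Transporters of organic nitrogen were mostly lower in csa. Amino acid and peptide transporters were 5 higher and 19 lower (median log2 -1.47), with 15 to 17 of the lower calls kept without 1 library. All 5 listed YSL genes, which carry metal chelates across membranes, were lower. YSL12 (LOC_Os04g44320) had 1362, 1038 and 1132 counts in csa against 2769, 4275 and 3838 in wild type (-1.58 ± 0.23). A cationic amino acid transporter (LOC_Os01g11160) had 75, 76 and 72 counts in csa against 281, 380 and 581 in wild type (-2.41 ± 0.26). Among the 5 higher members, an amino acid transporter-like gene (LOC_Os02g09810) had 738, 540 and 793 counts in csa against 232, 273 and 291 in wild type (1.42 ± 0.16).

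Inorganic nitrogen genes were split, with 6 higher and 7 lower. AMT1-1 (LOC_Os04g43070), an ammonium transporter, had 481, 424 and 192 counts in csa against 989, 1655 and 1549 in wild type (-1.87 ± 0.43). The cytosolic glutamine synthetase GLN1-1 (LOC_Os02g50240) was lower at -1.14 ± 0.21, and nitrite reductase (LOC_Os01g25484) was higher at 1.07 ± 0.23. GLN1-1 lost its call without csa replicate 2, csa replicate 3 or wild type replicate 2 (-1.21 to -0.98), and nitrite reductase without csa replicate 1 (0.84) or wild type replicate 2 (1.07). Of the lower calls, 2 were kept without csa replicate 3 or wild type replicate 3, 3 without wild type replicate 2 and 4 without csa replicate 2. Of the higher calls, 3 were kept without wild type replicate 2. Potassium, phosphate, sulfate and metal transporters were 7 higher and 13 lower. Phosphate transporter PHT1-8 (LOC_Os10g30790) had 2048, 1661 and 1493 counts in csa against 3783, 5785 and 5140 in wild type (-1.45 ± 0.25), while the potassium channel AKT1 (LOC_Os01g45990) was higher at 1.46 ± 0.22.

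Sugar transporters were 1 higher and 5 lower, among them the hexose transporter MST3 (LOC_Os07g01560) at -1.52 ± 0.52 and SWEET1B (LOC_Os05g35140) at -1.67 ± 0.48. Of these 5 calls, 2 or 3 were kept without any 1 library, and the 1 higher call was lost without csa replicate 3, wild type replicate 2 or wild type replicate 3. A gene that RefSeq names SWEET16 (LOC_Os03g22200), which the files annotate as similar to a cytochrome c oxidoreductase and which is therefore outside that count, had 82, 135 and 148 counts in csa against 41, 49 and 80 in wild type. It was higher at 1.16 ± 0.33, and its call was kept without csa replicate 1 (1.37) or wild type replicate 3 (1.42) and lost without any of the others (0.99 to 1.11). Glycolysis and fermentation genes were 3 higher and 8 lower, with 5 of the lower calls kept without wild type replicate 2. An alcohol dehydrogenase superfamily gene (LOC_Os09g32570) had 1306, 836 and 1213 counts in csa against 1961, 3139 and 4053 in wild type (-1.39 ± 0.31), and had been listed as higher in csa at 3 h (1.06). Genes of the secretory pathway were 2 higher and 9 lower. OST48 (LOC_Os07g10830), a subunit of the complex that attaches glycans in the endoplasmic reticulum, had 926, 1014 and 775 counts in csa against 2080, 2319 and 2030 in wild type (-1.20 ± 0.18). STT3A (LOC_Os05g44360), the catalytic subunit of that complex, stood at -1.08 ± 0.24 (-0.87 and not kept without csa replicate 3), the Sec61 beta channel subunit (LOC_Os12g07490) at -1.22 ± 0.19 and the coatomer subunit COPZ2 (LOC_Os02g21250) at -1.34 ± 0.32. Between 6 and 9 of the 9 lower calls were kept, and of the 2 higher ones both were kept without wild type replicate 3, none without csa replicate 3 and 1 without any other library.

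Developmental transcription factors were found on both sides. Homeobox genes were 6 higher and 9 lower, with 3 of the 9 lower calls kept without wild type replicate 2 and 5 without any 1 csa library. WOX11 (LOC_Os07g48560), a driver of crown root emergence, had 478, 526 and 564 counts in csa against 1694, 2363 and 1310 in wild type (-1.75 ± 0.30). QHB (LOC_Os01g63510), a WUSCHEL-type gene of the root quiescent centre, had 198, 115 and 69 counts in csa against 344, 467 and 317 in wild type (-1.51 ± 0.50), and was lower at 3 h too (-1.01). The drought-responsive HD-Zip gene Hox22 (LOC_Os04g45810) was higher at 1.85 ± 0.59, or 1.18 without csa replicate 3. A homeodomain-like gene (LOC_Os03g55590) had 1950, 1990 and 1680 counts in csa against 616, 396 and 474 in wild type (1.97 ± 0.23).

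NAC factors were 9 higher and 3 lower. The higher ones included LOC_Os08g06140, with 4501, 4403 and 5334 counts in csa against 2262, 1455 and 1752 in wild type (1.42 ± 0.20). The lower NAC genes LOC_Os11g03300 and LOC_Os12g03040 rested on wild type replicate 3, with 61 and 75 counts there against 6 to 13 in the other wild type libraries, and their log2 fold changes of -3.12 and -2.89 stood at -1.50 and -1.47 without it, where neither call was kept. Both calls were also lost without csa replicate 3, at -2.92 and -2.69, and LOC_Os12g03040 stood at -3.60 without csa replicate 1. MYB factors, the family of CSA, were 4 higher and 12 lower including CSA, with 6 of the 12 kept without wild type replicate 2 or 3 and 7 without csa replicate 3. Of the 4 higher calls, 1 was kept without csa replicate 2 or wild type replicate 1, 2 without csa replicate 1, wild type replicate 2 or wild type replicate 3 and 3 without csa replicate 3. An R2R3 MYB gene (LOC_Os07g48870) had 530, 493 and 416 counts in csa against 984, 1566 and 1121 in wild type (-1.31 ± 0.28). The MYBS2-like gene LOC_Os01g09280, related to MYB factors of the alpha-amylase sugar response, was higher at 1.25 ± 0.26.

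Phenylpropanoid and flavonoid enzymes were 7 higher and 10 lower, and 1 library weighed on the lower ones. Phenylalanine ammonia-lyase, the entry enzyme of the pathway, was listed 4 times, 1 higher and 3 lower. LOC_Os05g35290 had 30, 11 and 13 counts in csa against 55, 47 and 534 in wild type, so that its log2 fold change of -3.42 ± 1.17 stood at -1.50 without wild type replicate 3 and at -4.03 without csa replicate 1. LOC_Os02g41670 had 14, 5 and 5 counts in csa against 43, 18 and 257 in wild type, and its -3.59 stood at -1.92 and -4.29 without those libraries. LOC_Os02g41630 had 1796, 1157 and 458 counts in csa against 1975, 2665 and 3247 in wild type (-1.13 ± 0.53), and its call was lost without any library but csa replicate 1 (-1.29 to -0.74). The lyase gene LOC_Os04g43800 went the other way, with 316, 408 and 956 counts in csa against 101, 108 and 224 in wild type (2.00 ± 0.58). The 4-coumarate ligase 4CL3 (LOC_Os02g08100) stood at -1.97, or -1.29 and -2.58 without the same libraries. Of the 10 lower calls, 6 were kept without wild type replicate 3, and of the 7 higher calls 3 were kept without csa replicate 1 or wild type replicate 2 and 4 without the third library of either genotype. Potassium transporter HAK5 (LOC_Os01g70490), with 5, 2 and 8 counts in csa against 21, 17 and 105 in wild type, was also highest in wild type replicate 3, at -3.16, or -1.96 without it.

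Genes at the start of chromosome 1, with locus numbers LOC_Os01g01000 to LOC_Os01g07999, numbered 84, and 31 of them (36.9%) were higher in csa against 59.2% outside it. Of the 3 genes with 0 counts in all wild type libraries, 2 are there. LOC_Os01g05530, a Brix-domain gene of ribosome assembly, had 123, 96 and 142 counts in csa and 0 in each wild type library. Taking 3 counts for the whole wild type group as the floor, this is at least 120.3-fold higher. LOC_Os01g05510, a conserved hypothetical gene, had 57, 79 and 97 counts in csa and was at least 77.7-fold higher by the same floor. The third gene, LOC_Os01g68290, had 9, 14 and 7 counts in csa and was at least 10.0-fold higher. The region also held 37 genes listed at 3 h, 36 of them in the same direction, and whether the csa and wild type lines differ in sequence there was not tested.

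Of the 2388 genes, 326 were also listed at 3 h, when the authors called 4.91% of the genes tested. At 12 h, when 85 genes were listed in all, 34 were shared. Another 2044 were listed at 6 h alone, a count that rests in part on the short 12 h list. The 3 h effect went the same way in 281 of the 326 (232 higher and 49 lower in csa at both times). The other 45 were listed in opposite directions, 17 higher at 6 h but lower at 3 h and 28 lower at 6 h but higher at 3 h. An edgeR quasi-likelihood interaction of genotype and time, fitted over the 326 genes with Benjamini-Hochberg adjustment, found a difference between the times in 57 genes (17.5%), and 78 had an unadjusted p below 0.05. These were the 45 opposite genes, 9 genes with a larger effect at 6 h and 3 with a smaller one. Being listed in opposite directions already required a change of effect, so for those 45 the test adds only its size. Their small p also eased the adjustment for the 9 and 3 same-direction genes, whose unadjusted interaction p ran from 0.000222 to 0.00786. An adjustment over the 281 same-direction genes alone was not run, so whether these would pass it is not known. For the other 269 genes no difference between the times was detected.

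A peptide transporter of the PTR2 type (LOC_Os01g67630) had the smallest interaction p of the opposite genes. At 6 h it had 114, 165 and 105 counts in csa against 800, 1041 and 673 in wild type (-2.67 ± 0.34), and at 3 h it had 167, 141 and 69 counts in csa against 41, 65 and 51 in wild type (1.34 ± 0.38). Levels at the 2 times come from tables scaled separately, so the genotypes are compared within a time. A gene similar to indole-3-acetate glucosyltransferase (LOC_Os09g34230), an enzyme that conjugates auxin, turned the other way. It had 5040, 5839 and 4760 counts in csa against 2671, 2023 and 1567 in wild type at 6 h (1.36 ± 0.28), but 4632, 5044 and 5261 in csa against 14776, 10555 and 11955 in wild type at 3 h (-1.25 ± 0.17). The genotypes did not overlap at either time in these 2 genes.

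**Figure D5:**
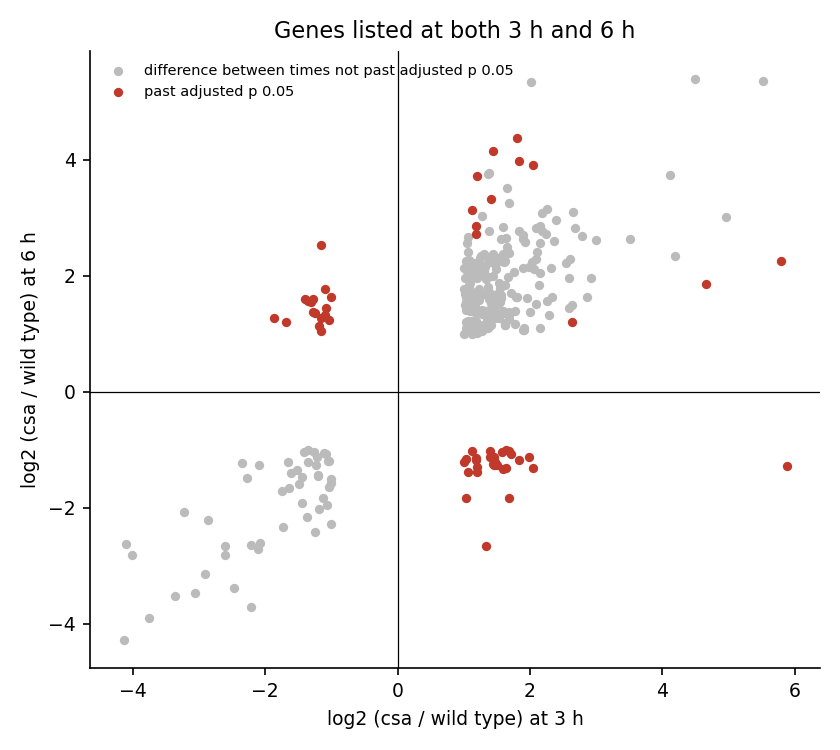
Each point is 1 of 324 genes listed at both times, with the log2 ratio of csa to wild type at 3 h on the horizontal axis and at 6 h on the vertical axis. The 2 shared genes with 0 wild type counts are left out, and the 57 genes whose effect differed between the times (edgeR interaction, adjusted p of 0.05) are red, 45 of them in the 2 quadrants of opposite direction.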

How the data were processed

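Per the file headers, the deposited table gives for each gene a raw read count in each library, and the authors' log2 fold change (csa over wild type), p-value and FDR. DESeq2 is named, without a version, per the submitters' processing notes; which aligner, counter, strand setting and build were used is not given in the labels or headers. Only called genes are listed, so the authors' calls are the main result. Each sample column was matched by name, with 0 left unmatched. The third wild type 12 h sample carries a genotype field naming the mutant and was grouped by its title. It bears here only on genes shared with 12 h. The scaling factors were recovered from the deposited log2 fold changes (median absolute residual 0.00162), and the 23117 genes tested from the deposited p and FDR ranks, by which 5394 passed the FDR at any fold. Per gene, the log2 ratio of mean scaled counts has a delta-method standard error (n = 3 each).

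Refits used edgeR 4.0.16, limma 3.58.1 and DESeq2 1.42.0 in R 4.3.3, tested on simulated counts. A call was kept at a p no larger than the largest deposited p (0.0117), a change of at least 2-fold and an unchanged direction, all taken from the refit. The members and lists were chosen with earlier results of these data known. Genes named by rule were, among those with a descriptive annotation (not hypothetical or of unknown function), per direction, the 10 highest in level, the 10 largest in change at a mean of 50 or more scaled counts and the 6 smallest in FDR without overlap; per list and direction, up to 4 by level and 2 by change; up to 6 genes per direction with 0 counts in 1 genotype; CSA; genes listed at all 3 times; and 8 opposite genes by interaction p. Of 417 so named, the text gives a part, and it adds further list members chosen after their values were seen. RefSeq locus tags matched 1892 genes (79.2%), of which 323 carry a gene name.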

Additional observations from a re-analysis of the deposited data

Results flagged for a closer look

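The csa effect differed between 6 h and 3 h in 8 genes set out here, those with a descriptive annotation that were listed in opposite directions at the 2 times with the smallest interaction p (edgeR quasi-likelihood, adjusted over 326 genes, 3 libraries per genotype and time). Being listed in opposite directions already required a change of effect, so for these genes the test adds only its size. The values are the log2 csa effect at 6 h minus that at 3 h, and means are scaled counts within each time. The PTR2-type peptide transporter LOC_Os01g67630 had -4.01 (adjusted p = 4.72e-06), with means at 6 h of 131 in csa and 834 in wild type and at 3 h of 129 in csa and 50.9 in wild type. The wax synthesis gene LOC_Os02g56920, similar to CER1, had -3.35 (adjusted p = 0.000108), with 436 in csa and 1080 in wild type at 6 h, and 139 in csa and 33.8 in wild type at 3 h. The receptor kinase-like gene LOC_Os01g02300 had -2.95 (adjusted p = 0.000108), with 113 in csa and 281 in wild type at 6 h, and 88.2 in csa and 28.3 in wild type at 3 h. It lies at the start of chromosome 1.

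A CCT-domain gene, LOC_Os02g05470, had -2.80 (adjusted p = 0.000121), with 133 in csa and 282 in wild type at 6 h, and 65.5 in csa and 19.8 in wild type at 3 h. The uricase gene LOC_Os01g64520, of purine breakdown, had -2.73 (adjusted p = 0.000201), with 341 in csa and 823 in wild type at 6 h, and 282 in csa and 102 in wild type at 3 h. The other genes were higher in csa at 6 h and lower at 3 h. The auxin glucosyltransferase-like gene LOC_Os09g34230 had 2.60 (adjusted p = 0.000108), with 5310 in csa and 2070 in wild type at 6 h, and 5110 in csa and 12100 in wild type at 3 h. The cis-zeatin O-glucosyltransferase gene LOC_Os04g46980, of cytokinin conjugation, had 2.91 (adjusted p = 0.000108), with 87.4 in csa and 29.7 in wild type at 6 h, and 72.6 in csa and 187 in wild type at 3 h. The UDP-glucosyltransferase gene LOC_Os01g45110 had 2.87 (adjusted p = 0.000108), with 819 in csa and 270 in wild type at 6 h, and 598 in csa and 1450 in wild type at 3 h. Another 4 opposite genes, set aside because their annotation holds the words hypothetical or unknown function, had interaction p in the same range. They were LOC_Os01g36580 at -6.69, which rests on 1 wild type count at 3 h, LOC_Os03g04740 at 3.66, LOC_Os01g52230 at 2.88 and LOC_Os02g38890 at 2.86. The annotation of LOC_Os01g52230 also names a hydrolase of the HAD superfamily. The tables of the 2 times were scaled separately, which cancels in the differences but not in the means.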

How the results depend on the processing

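Of the 2388 calls, refits kept 2275 with edgeR, 2204 with DESeq2 and 2170 without scaling. TMM on the listed genes kept 1428 (435 higher and 993 lower, 30.5% higher against 58.4%), the shift in the median being -0.58. That scaling takes most genes as unchanged, which the listed genes are not, so it cannot decide the split. A log2 fold change of 2 or more left 476 genes (301 higher, 175 lower, 63.2% higher). The share higher was 55.6% without scaling and 60.9% at an FDR of 0.01. Leaving out 1 library kept 1577 to 1957 calls, 939 to 1183 of them higher and 638 to 774 lower, the share higher being 59.5% to 62.6%. The lowest total was without wild type replicate 2. Lower calls came to 641 without csa replicate 3. With replicate number as a block (replicate block), 2313 calls were kept. The numbers were not taken to pair the libraries. Over 2280 genes, deviations of same-numbered libraries correlated at -0.21, 0.304 and 0.173, and those of differently numbered libraries at -0.397 to 0.291. These values overlap, so they cannot decide whether the libraries were paired. The 57 genes whose effect differed between 3 h and 6 h came to 50 to 75 under all alternatives, and 63 with the block. Of the 57, 45 were listed in opposite directions, which already required a difference and eased the adjustment for the rest. Of 417 named genes 166 lost their call in at least 1 refit, and 0 reversed. Outside the left-out libraries, 6 of 83 list counts moved by over 1.5 times. Those were small heat shock proteins (10 to 6), lower histones (2 to 1) and glutelins (2 to 1) without the start of chromosome 1, and, in the edgeR refit, lower sugar transporters (5 to 3), lower starch and sucrose enzymes (5 to 3) and higher MYB factors (4 to 2). Where not shown otherwise above, the cause was not tested. Promoter motif shares were not run, because no promoter sequences were used here. Depth per library is unknown, and 107 listed genes had a mean raw count under 10.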

Other observations

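Several listed groups lie outside the comparisons above. Receptor and other protein kinases, which relay signals at the membrane and within the cell, were 25 higher and 48 lower in csa (median log2 -1.18), and 29 of the lower calls were kept without csa replicate 3 and 31 without wild type replicate 2. F-box, RING and ubiquitin genes, which mark proteins for breakdown, were 42 higher and 22 lower (median 1.10). That is 65.6% higher, near the 58.4% and the median of 1.11 of all listed genes. Of the F-box, RING and ubiquitin genes, 26 of the higher calls were kept without wild type replicate 2 and 27 without csa replicate 3. Of the lower calls, 11 were kept without csa replicate 3, 13 without csa replicate 1, wild type replicate 1 or wild type replicate 2, and 14 without wild type replicate 3. Pentatricopeptide, ribosome and RNA processing genes were 25 higher and 5 lower (median 1.21), with 12 of the higher calls kept without wild type replicate 2 and 3 of the lower without wild type replicate 3. Peptidases were 12 higher and 25 lower (median -1.20), with 16 of the lower calls kept without csa replicate 3 or wild type replicate 2 and 7 of the higher without wild type replicate 2. Cytochrome P450 genes were 17 higher and 12 lower, with 10 of the higher calls kept without csa replicate 2 and 11 without wild type replicate 3. Calcium sensors were 10 higher and 3 lower, with 1 of the lower calls kept without csa replicate 2.

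By chromosome, as read from the locus numbers, the share of listed genes higher in csa ran between 42.6% on chromosome 12 (43 higher and 58 lower) and 63.6% on chromosome 3 (213 higher and 122 lower). Chromosome 11 stood at 46.8% (52 higher and 59 lower). Of all listed genes, 1641 (68.7%) had a descriptive annotation, and the 747 without one were 64.5% higher in csa.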
